A study of Homo sapiens with 16 samples.

Results

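A375 is an established human melanoma cell line that carries an activating BRAF mutation. The 4 A375 libraries of the series, out of 16, were chosen by their titles, and they hold ribosome footprints from cells kept for 30 min in the solvent DMSO (2 libraries) or in rocaglamide A, RocA, at 0.3 µM (1 library) or 3 µM (1 library). The labels give the genetic background of every library as wild type and name no other agent. The other 12 libraries come from the same treatments, in the same numbers, of the melanoma line Hs 936.T and the lung cancer lines NCI-H1650 and NCI-H520, and they serve here only for a comparison of responses. The labels do not say whether the DMSO libraries came from separate cultures, so each p-value measures the spread between these libraries, which may be technical. Because both doses are joined into 1 RocA group of 2 libraries, the spread of that group also holds any difference between doses.

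Ribosome profiling sequences the stretches of mRNA that a ribosome shields from RNase, and the number of such footprints on a gene follows the number of ribosomes on its mRNA. RocA is a plant-derived inhibitor of translation initiation that locks the RNA helicase eIF4A onto purine-rich stretches of mRNA, where the clamped helicase blocks the scanning ribosome; DDX3X has been described as a further target. eIF4A normally unwinds the leader of an mRNA so that the initiation complex can reach the start codon. In melanoma with mutant BRAF the ERK pathway is constantly active, and several short-lived proteins made under its control depend on steady translation.

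Footprints on the 9990 genes that could be named numbered 1917425 and 3110591 in the DMSO libraries of A375, and 320358 and 270735 at 0.3 and 3 µM. Each value below is in CPM, the footprints of a gene relative to its library's total, scaled by the trimmed mean of M-values, and therefore a share: a loss of footprints common to all genes cannot be seen, and fewer ribosomes on an mRNA and less of that mRNA cannot be told apart, since mRNA levels were not analysed here. Among 4399 genes with at least 25 CPM on average over the A375 libraries, 8 differed 2-fold or more between the DMSO libraries. Between the RocA libraries, which are shallower, 438 did so, and above 100 CPM 43 of 1900.

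The cells were checked against markers. Of the dedifferentiated melanoma markers, 6 of 8 were named, all 6 had counts in every A375 library, and their summed level was 1440 and 1425 CPM with DMSO and 1442 and 1300 CPM with RocA, before scaling. AXL, a receptor kinase of this state, stood at 306 and 305 CPM with DMSO. Of the melanocyte markers, 6 of 10 were named and summed to 152 and 167 CPM with DMSO against 31880 and 33010 CPM in Hs 936.T, so pigment cell genes were low in A375. Of the epithelial markers, 6 of 8 were named, and 4 to 5 of these 6 were at 0 in each A375 library, EPCAM and CDH1 among them. Summed squamous and blood markers stayed at or below 2.89 and 12.5 CPM.

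RocA moved a large part of the measured genes in A375, in both directions and by unequal amounts. Among the 6157 genes that entered the test, 1450 rose (23.6%), 1615 fell (26.2%) and 3065 did either (49.8%), a call being an adjusted p under 0.05 in edgeR's quasi-likelihood test with Benjamini-Hochberg adjustment. DESeq2 called 1154 higher and 990 lower. Of the genes called by edgeR 817 rose and 1260 fell by 2-fold or more, and the median log2 change of all tested genes was -0.09. Both RocA libraries lay outside both DMSO libraries for 4707 genes (76.4%), 2139 of them above and 2568 below, and 11 called genes did not show this ordering. With 2 against 2 libraries such an ordering is frequent even without any effect. It is therefore no count of genes that responded, although it held for more genes than the test called. Among the genes called lower, 298 had 0 to 3 footprints over both RocA libraries, and their folds are known only roughly.

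The genes named next had at least 25 CPM on average over the 4 A375 libraries. Some reached this only through the group where they were high, as FLNC and RPS6KB2 did with RocA and TOR1AIP2 with DMSO. All were chosen among genes whose RocA libraries both lie outside both DMSO libraries, so that separation is no finding. The rises included FLNC, AHNAK, ZFP36 and RELB. FLNC, the muscle filamin that cross-links actin (chr7:128830377-128859274), stood at 6.45 and 5.08 CPM with DMSO and at 85.7 and 58.4 CPM at 0.3 and 3 µM. AHNAK, a very large scaffold under the cell membrane (chr11:62433542-62556235), went from 307 and 413 to 2860 and 2592 CPM. In both genes the 2 doses lay far above both DMSO libraries. The log2 change was 3.68 ± 0.41 (SE) for FLNC and 2.92 ± 0.16 for AHNAK, with adjusted p of 1.5e-10 and 5.5e-21 (edgeR, Benjamini-Hochberg).

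ZFP36, or tristetraprolin, binds AU-rich mRNAs and speeds their decay. Its level was 38.7 and 43.3 CPM with DMSO, 264 CPM at 0.3 µM and 405 CPM at 3 µM, a log2 change of 3.00 ± 0.20. RELB, a subunit of NF-κB, rose from 13.9 and 17.9 to 85.7 and 97.3 CPM. RPS6KB2, a kinase of ribosomal protein S6, rose from 2.98 and 5.97 to 48.0 and 50.6 CPM, which rests on 14 and 13 footprints at the 2 doses. For ZFP36 the level at 3 µM was the highest, and for RELB and RPS6KB2 the doses were close. Other leading rises were NAA25, a subunit of an N-terminal acetyltransferase (log2 change 2.41), GUK1, guanylate kinase (2.42), TAF1, the largest subunit of TFIID (2.38), the phosphatase PPM1M (2.66), C22orf39 (2.76) and PMEL (2.71). The annotated range of C22orf39 overlaps HIRA on the same strand and MRPL40 on the other, so its footprints are uncertain.

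PMEL builds the fibrils on which melanosomes lay down melanin, and it is a mark of pigmented cells. It rose from 25.3 and 14.04 to 123 and 121 CPM in A375, and TYRP1 and SLC45A2, also pigment genes, were called higher with log2 changes of 2.74 and 2.43. TYRP1 had 7 and 5 footprints with RocA, and SLC45A2 3 and 5. All 3 were rare in A375 and abundant in Hs 936.T. Before scaling, PMEL stood in A375 at 0.115% and 0.0655% of its Hs 936.T level with DMSO and at 0.487% and 0.497% with RocA. For TYRP1 these shares were 0.148% and 0.0812% with DMSO and 0.690% and 0.583% with RocA, and for DCT 0.151% and 0.0310%, then 0.301% and 0.356%. These shares were alike between the 3 genes, and higher in the RocA libraries, which are the shallower ones; the part of this in the rises was not tested. In the fit over 16 libraries PMEL, TYRP1 and SLC45A2 all lost their calls (edgeR, Benjamini-Hochberg adjusted p = 0.0646, 0.121 and 0.257). SLC45A2 also lost its call without DMSO library 2, where its change was 1.53, without the 3 µM library and with DESeq2. The other 11 leading rises had both RocA levels in A375 above every one of the 6 DMSO libraries of the other lines. They were chosen for being high with RocA in A375, and RocA libraries of the other lines were not compared. A cause of these rises was therefore not tested. Reads from CDK2, which overlaps PMEL on the opposite strand, cannot be told apart where counting ignores strand.

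The genes with the deepest falls kept few footprints. UBE2D3, a ubiquitin-conjugating enzyme of wide use (chr4:102794383-102868896), had 399 and 378 CPM with DMSO and 10.3 and 7.79 CPM with RocA, that is 2070 footprints against 5. RBBP7, a histone-binding subunit of chromatin complexes (chrX:16839283-16870414), fell from 466 and 406 to 17.1 and 31.1 CPM. FAM3C, a secreted factor of the epithelial-mesenchymal transition, fell from 111 and 137 to 13.7 CPM at 0.3 µM and 0 at 3 µM. No RocA value of these 3 came near a DMSO value. The log2 changes were -5.40 ± 0.35 for UBE2D3, -4.19 ± 0.28 for RBBP7 and -4.09 ± 0.48 for FAM3C, with adjusted p of 4.1e-18, 2.6e-17 and 1.2e-09 (edgeR, Benjamini-Hochberg). TMEM14B, a small membrane protein, fell from 117 and 118 to 13.7 and 0 CPM.

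Other leading falls had at most 3 footprints left in both RocA libraries, so they are given as ratios with an interval for counting error. EXO1, an exonuclease of mismatch repair and of double-strand break resection, had 480 footprints with DMSO and 2 with RocA, and was 24.5-fold lower (95% interval 6.76 to 203). RAB5A, the GTPase of early endosomes, had 513 and 3 and was 17.5-fold lower (5.95 to 85.1). STAT6, the transcription factor of interleukin-4 signalling, had 321 and 2 and was 16.4-fold lower (4.51 to 136). ATG101 belongs to the kinase complex that starts autophagy, and it was 15.9-fold lower (5.41 to 77.5). SLC25A22, the mitochondrial glutamate carrier, was 34.4-fold lower (6.12 to 1361), MTIF2, a mitochondrial initiation factor, 18.9-fold lower (5.19 to 156), and SDC2, a heparan sulfate proteoglycan, 15.1-fold lower (4.14 to 125.1). TOR1AIP2, counted on an entry of 122 codons where its longest has 461, had 360 footprints with DMSO and 0 with RocA, at least 12.3-fold lower against a floor of 3 counts over both RocA libraries. On the entry with the longest coding sequence TOR1AIP2 had a log2 change of -2.61, still called lower. STAT6, RAB5A, RBBP7, SLC25A22 and TMEM14B overlap another coding gene on the opposite strand, and TMEM14B also one on its own strand, so its footprints are uncertain.

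**Figure D1:**
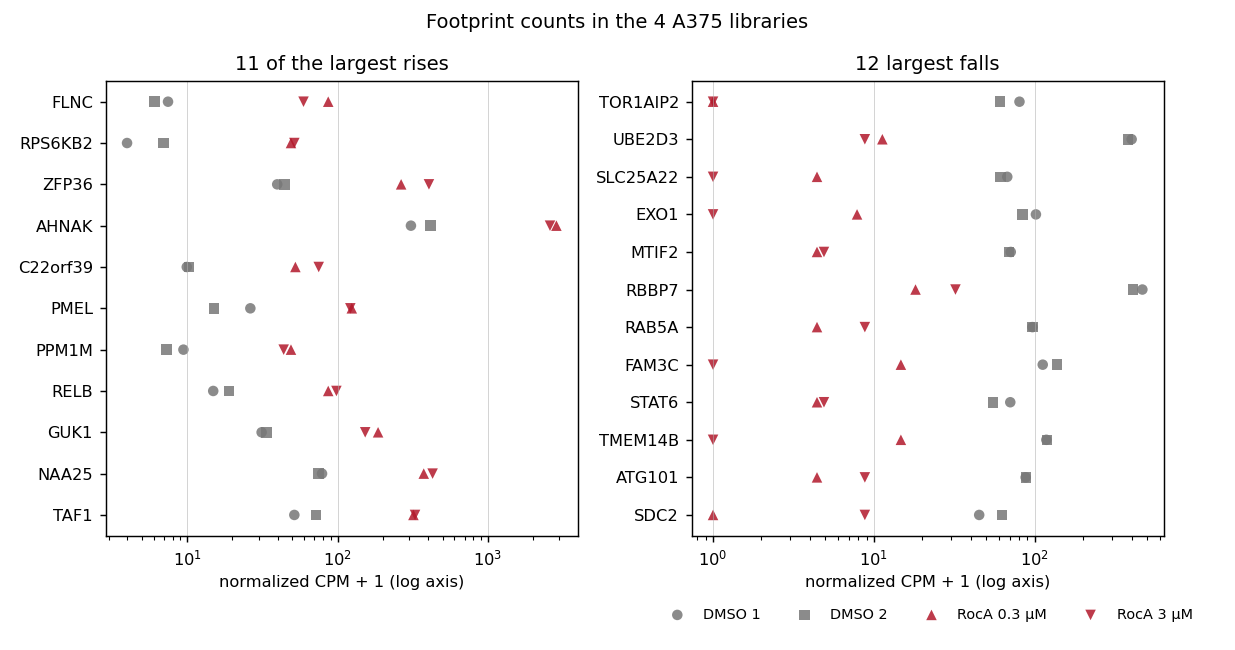
Levels of 11 of the genes with the largest rises and of the 12 with the largest falls, 1 row per gene and 1 point per library, as normalized CPM + 1 on a log axis. Grey points are DMSO, red points RocA, and in every row the red points lie on 1 side of the grey ones, for example 2860 and 2592 CPM against 307 and 413 CPM for AHNAK.

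Since RocA holds eIF4A on purines, the annotated leader (5′ UTR) behind each counted coding sequence was searched for its longest unbroken run of A and G on the mRNA strand. The run is shown in capitals in the windows below, each of 30 bases, from GENCODE 29 transcripts on GRCh38. The first 5 belong to genes that were nearly emptied of footprints, the next 3 to genes among the largest rises.
UBE2D3, chr4:102827701-102827730, minus strand: tgttccGAGAAGAAGGAAAAGGGcttgaca
RBBP7, chrX:16870257-16870286, minus strand: aagtttGGAGAGAGAGAGAAGAGcgcctca
EXO1, chr1:241848317-241848346, plus strand: tccgctcAAGGGGAGGAGGAGAGtcccttc
STAT6, chr12:57111140-57111169, minus strand: gcccgctGAGAAAGGGAGAAGAcagcagag
ATG101, chr12:52070414-52070443, plus strand: gggcgtGAGGAGGAGGAGGAAGGGcatgag
ZFP36, chr19:39406813-39406842, plus strand: ttcctatAAGtagccggctctcggtgccag
RPS6KB2, chr11:67428516-67428545, plus strand: ggccgacgggcccgcGGGGccggcgccgcc
RELB, chr19:45001459-45001488, plus strand: cccgcgcagccccGGGcgccgcgcgtcctg

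The falls shown carry runs of 17 purines in UBE2D3 and RBBP7, 16 in EXO1, 15 in STAT6 and 18 in ATG101. The longest run was 3 bases in ZFP36 and RELB and 4 in RPS6KB2. Not every gene followed this order. AHNAK, among the strongest rises, had a run of 23 purines and FLNC one of 14, as the following windows show, while SLC25A22 and TOR1AIP2 fell steeply with longest runs of 7 and 8.
AHNAK, chr11:62536510-62536539, minus strand: actGAGGGGAAGAGAGGAAGGAGGGGcggg
FLNC, chr7:128830425-128830454, plus strand: ccggccctGGAGGGAGAGAGAGccagagag
SLC25A22, chr11:796201-796230, minus strand: ggctggagtgtGGAAGAGccatccagagtg

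Runs of at least 12 purines were more frequent in genes called lower. Of 5843 tested genes with an annotated leader of at least 20 bases, 1091 held such a run (18.7%). The share was 131 of 1318 among genes called higher (9.94%), 508 of 2941 among genes not called (17.3%) and 452 of 1584 among genes called lower (28.5%). Among the 12 leading falls 7 had such a run, and among the 11 leading rises with an annotated leader 3 did. The leaders also differed in length: their median was 115 bases for genes called higher, 181 for genes not called and 279 for genes called lower, and the run was more frequent in longer leaders. Base composition differed less, with a median GC content of 67.9%, 66.9% and 64.4%.

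Within each of 5 classes of leader length the share was also higher in genes called lower, although within a class their leaders were still somewhat longer in the median (51 against 47 bases in the shortest class, 443 against 425 in the longest). With leaders of 20 to 74 bases the run was present in 1.67% of 420 genes called higher and 5.48% of 73 called lower. With 75 to 124 bases the shares were 3.56% and 12.6%, and in the next class, up to 199 bases, 4.95% and 14.5%. They came closer in longer leaders, with 15.6% and 20.4% at 200 to 299 bases, and 34.2% of 222 and 43.4% of 722 at 300 bases or more. These shares describe the annotation and carry no test; the leader in use in A375 was not measured, and a run is not shown to be a site of eIF4A.

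**Figure D2:**
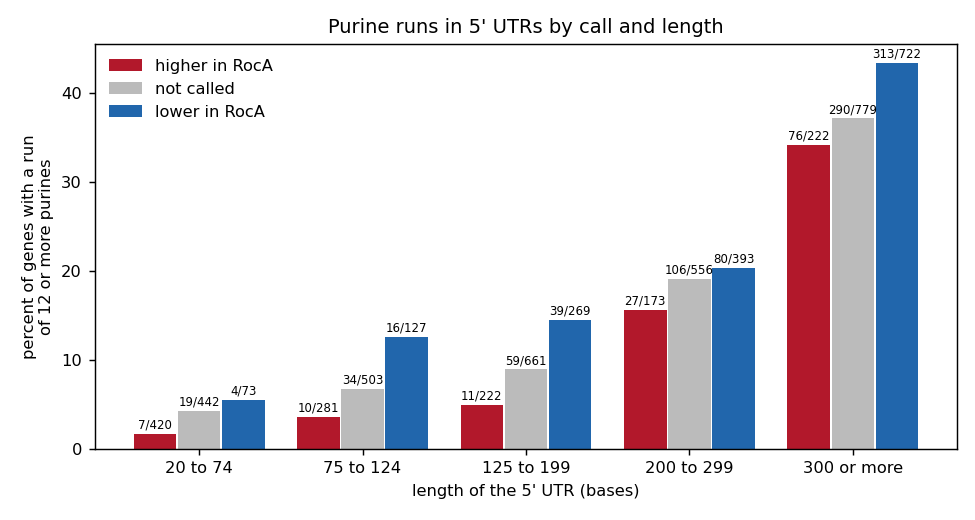
Percent of genes whose 5′ UTR holds a run of 12 or more purines, by call in A375 and by length of the 5′ UTR in bases. Red bars are genes called higher with RocA, grey bars genes not called and blue bars genes called lower, with the number of genes above each bar, and the blue bar is the tallest in each class, from 5.48% in the shortest to 43.4% in the longest.

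The proteins that RocA acts on, and their partners, did not move together. EIF4A1, the main eIF4A of growing cells, was at 6606 and 6288 CPM with DMSO and at 7869 and 8532 CPM with RocA, a small rise with a log2 change of 0.35 ± 0.13 and an adjusted p of 0.028 (edgeR, Benjamini-Hochberg). EIF4A2, its paralog, went from 170 and 214 to 425 and 549 CPM, a log2 change of 1.33 ± 0.16. EIF4A1 overlaps the read-through gene SENP3-EIF4A1 on its strand, and EIF4A2 overlaps RFC4 on the other. Both helicases were higher in both RocA libraries, EIF4A2 by far the more. The call of EIF4A1 was lost without either DMSO library, without the 3 µM library and without a filter, with adjusted p of 0.0536 to 0.273 (edgeR, Benjamini-Hochberg).

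DDX3X, a helicase that helps ribosomes through structured leaders, gave opposite values at the doses. It stood at 1195 and 935 CPM with DMSO, at 4320 CPM at 0.3 µM and at 724 CPM at 3 µM. The RocA libraries therefore lay on both sides of DMSO, and the joined change of 1.25 ± 1.10 was not called (edgeR, Benjamini-Hochberg adjusted p = 0.46). With 1 library per dose, a dose effect and a peculiarity of the 0.3 µM library cannot be told apart, and DDX3X shares sequence with a related gene, so its counts are uncertain. Without the 0.3 µM library its change was -0.55, and without the 3 µM library 2.02, called in both cases.

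Around eIF4A, 13 genes of the cap-binding complex were tested, 4 higher and 4 lower, with 2 higher without either DMSO library or without a filter. EIF4B, the cofactor that stimulates eIF4A, rose from 613 and 578 to 1848 and 1767 CPM, and EIF4E, the cap-binding protein, had a log2 change of 0.40 and an adjusted p of 0.037 (edgeR, Benjamini-Hochberg). The call of EIF4E was lost under 7 alternatives, among them each DMSO library or the 3 µM library left out, with adjusted p of 0.104, 0.384 and 0.184 (edgeR, Benjamini-Hochberg). PABPC1, the poly(A)-binding protein, fell from 650 and 658 to 110 and 46.7 CPM. PDCD4, an inhibitor that competes for eIF4A, fell from 205 and 242 to 27.4 and 31.1 CPM, and EIF4G2, a scaffold for alternative initiation, from 945 and 850 to 223 and 195 CPM. EIF4G1, the main scaffold, had a log2 change of -0.06 and was not called.

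Of 16 other initiation factors 5 rose and 7 fell. EIF2A, from 390 and 345 to 1169 and 1063 CPM, and EIF3L, with a log2 change of 0.92, were among the rises; EIF5, the GTPase-activating factor of start codon recognition, fell from 192 and 175 to 30.9 and 15.6 CPM, and EIF1 by 1.21 on the log2 scale. The rises numbered 2 without DMSO library 2, and 3 without DMSO library 1 or the 0.3 µM library. Termination factors were among the falls: of 8 elongation and release factors 5 fell, among them ETF1, which reads stop codons (439 and 431 to 106 and 124.6 CPM), its partner GSPT1 (385 and 429 to 120 and 74.0 CPM) and the recycling factor ABCE1 (log2 change -1.32). EEF1D was the 1 rise, with a log2 change of 0.89, and the falls numbered 3 without DMSO library 1, 3 without the 0.3 µM library and 3 with DESeq2.

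In the plot of calls by list each group of genes is set against all tested genes, with 23.6% higher, 26.2% lower and a median change of -0.09. Counts and medians of a list describe it and are no test of the list as such.

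Most tested genes of oxidative phosphorylation and of the mitochondrial ribosome gained footprint share. Of the 68 and 95 genes on these lists, 31 and 30 could be named. Of 31 nuclear-encoded subunits of oxidative phosphorylation, 23 rose and 3 fell, with a median log2 change of 0.69, and of 30 mitochondrial ribosomal proteins 21 rose and 2 fell, with a median of 0.85. COX7A2 of complex IV went from 512 and 559 to 1618 and 1518 CPM, and SDHA of complex II from 204 and 226 to 586 and 564 CPM. MRPS27, of the small mitochondrial subunit, went from 236 and 243 to 737 and 743 CPM. In all 3 both RocA libraries were more than 2-fold above both DMSO libraries. Exceptions were SDHD and NDUFC2, with log2 changes of -1.46 and -1.47, and MRPL3 and MRPL42, with -1.75 and -1.95. Outside these lists, the mitochondrial genes SLC25A22 and MTIF2, given above, were among the leading falls.

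Cytosolic ribosomal proteins, whose mRNAs have short leaders that begin with a pyrimidine tract (TOP mRNAs), rose by less. Of 44 tested, 25 rose and 6 fell, with a median log2 change of 0.38. FAU went from 1275 and 1279 to 3261 and 3250 CPM and RPS13 from 2205 and 1887 to 5109 and 4944 CPM, while RPL24 fell from 2872 and 2685 to 1605 and 1456 CPM. The rises numbered 13 without DMSO library 2, and the falls 2 and 3 without DMSO library 1 and 2. Many of these genes have near-identical pseudogenes, so their counts are uncertain. The 12 other TOP mRNAs were divided, with 5 higher and 4 lower: beside EIF4B, EIF2A and EIF3L among the rises, RACK1 of the small ribosomal subunit fell from 4624 and 4392 to 2489 and 1795 CPM, and PABPC1 fell most.

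The giant cytoskeletal linkers had the highest median of the lists with at least 8 tested members, 1.25, and 13 of 20 rose while 2 fell (4 fell without the 3 µM library). The longest coding sequences also leaned up among all tested genes. Of 233 genes with at least 2000 codons 30.9% rose and 12% fell, with a median log2 change of 0.22. This was no steady trend with length. Of 941 genes with 1000 to 1999 codons 19.2% rose and 27.5% fell, with a median of -0.23. The share of rises was highest, at 36.5%, in genes with at most 149 codons. The part of coding length in the linkers was not tested. Beside FLNC and AHNAK the linkers that rose included FLNA, PLEC, MACF1, SYNE1, SYNE2, UTRN, DST, MAP4, SPTAN1 and SPTBN1, with log2 changes of 0.87 to 2.32. DST lost its call without the 0.3 µM library, and SYNE2 had a change of 3.61 without DMSO library 2. ACTN1, an actin cross-linker, fell from 700 and 733 to 285 and 308 CPM, and CLTC, the clathrin heavy chain, by 0.69 on the log2 scale. Motor proteins showed no such lean, with 8 of 36 higher and 5 lower (5 and 3 without DMSO library 1, and 8 lower without the 3 µM library), but DYNC2H1, the heavy chain of the ciliary dynein, rose from 53.6 and 65.4 to 343 and 265 CPM.

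Proto-oncogenes and survival genes lay on the lower side. Of 22 tested, 15 fell and 2 rose, with a median log2 change of -1.22. HIF1A, the oxygen-regulated transcription factor, went from 574 and 587 to 99.4 and 85.6 CPM. ETS1, a transcription factor downstream of ERK, went from 172 and 133 to 27.4 and 19.5 CPM. YAP1, the effector of the Hippo pathway, went from 106 and 117 to 34.3 and 31.1 CPM. For these 3 both doses lay far below both DMSO levels. MCL1 and BIRC5, which both protect cells from apoptosis, were the 2 that rose, MCL1 from 642 and 738 to 981 and 1179 CPM and BIRC5 from 197 and 174 to 357 and 417 CPM. Without the 0.3 µM library the falls numbered 11 and the median was -0.73, and DESeq2 called 10 falls. Without DMSO library 1 MCL1 lost its call, which left 1 rise.

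Of 33 cell cycle genes, 18 fell and 4 rose, with a median log2 change of -0.83. CDC25A, the phosphatase that opens S phase, went from 98.7 and 83.9 to 24.0 and 7.79 CPM, and CCNG1 from 103 and 129 to 13.7 and 7.79 CPM. BUB1, a kinase of the spindle checkpoint, rose from 117 and 127 to 285 and 292 CPM. Genes of DNA replication and repair were evenly divided, 12 higher and 14 lower of 49. RRM2, the small subunit of ribonucleotide reductase, went from 1295 and 1219 to 3669 and 3472 CPM, PRKDC, a kinase of end joining, rose by 1.84 on the log2 scale, and TOP2B fell from 161 and 161 to 30.9 and 11.7 CPM.

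Genes of the ERK pathway, which drives this line, had medians below that of all tested genes, but 8 of the 15 components were not called. Of 15 components 6 fell and 1 rose, and of 8 transcriptional targets 5 fell and 1 rose, with median log2 changes of -0.76 and -1.21. PTPN11, a phosphatase that passes on signals from receptors, went from 95.2 and 91.7 to 30.9 and 15.6 CPM, and RASA1, an inhibitor of the pathway, from 44.6 and 47.2 to 3.43 and 11.7 CPM. Among the targets, ETV5 went from 109 and 138 to 13.7 and 11.7 CPM and SPRY4, a feedback inhibitor, from 141 and 202 to 78.9 and 50.6 CPM. DUSP6, the feedback phosphatase of ERK, also fell, by 1.01 on the log2 scale, whereas FOSL1 and ETV4 had changes of 0.27 and 0.28 and were not called. FOSL1 was called higher, with 0.60, without the 0.3 µM library and had a change of -0.15 without the 3 µM library. ERBB3, a receptor of neuregulin, was the 1 component that rose, from 145 and 202 to 483 and 362 CPM. With DESeq2 only 2 of the 15 components fell, beside 990 of all 6157 tested genes. The component median was -0.62 without the 3 µM library and -0.64 without DMSO library 2.

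The immediate early genes, whose transcription starts within minutes of a stimulus, rose in 4 of 9 cases and fell in 0. FOSB, EGR3 and ZFP36L1 had both RocA levels below both DMSO levels without a call. FOS went from 21.8 and 45.1 to 161 and 156 CPM, with a log2 change of 2.16 ± 0.27, and ATF3 from 22.8 and 18.8 to 24.0 and 58.4 CPM. The call of ATF3 rests on the 3 µM library: without it the log2 change was 0.23 instead of 0.97 (edgeR, Benjamini-Hochberg adjusted p = 0.78), and the call was lost under 4 other alternatives, DESeq2 and DMSO library 2 left out among them. The remaining rises were ZFP36 and MCL1, given above.

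Metabolic genes moved gene by gene. In glycolysis 5 of 14 rose and 4 fell: LDHA, lactate dehydrogenase, went from 3397 and 3503 to 12766 and 10494 CPM, and SLC2A1, the glucose transporter, from 540 and 510 to 30.9 and 62.3 CPM. In cholesterol synthesis 6 of 16 fell and 2 rose (1 without DMSO library 1), the median of -0.46 being -0.70 without the 0.3 µM library, with FDFT1, squalene synthase, lower by 1.22 and INSIG1, the sterol sensor, higher by 1.25 on the log2 scale. Of 9 serine, one-carbon and stress genes 5 rose, MTHFD2 (572 and 512 to 1306 and 1090 CPM) and ASNS (log2 change 0.86) among them, and 2 fell; the rises numbered 3 without either DMSO library, and the falls 1 without either or without the 0.3 µM library.

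Protein folding and breakdown were also mixed. Of 22 cytosolic chaperones 7 rose and 10 fell (6 of the 16 tested with stricter naming), and the median of -0.19 was -0.28 without DMSO library 2. Subunits of the same chaperonin went both ways, CCT5 from 1854 and 1838 to 4358 and 3986 CPM and CCT4 from 1476 and 1378 to 669 and 689 CPM. Of 10 endoplasmic reticulum chaperones 4 rose and 2 fell (1 without either DMSO library), with XBP1, the transcription factor of the unfolded protein response, up from 87.3 and 75.2 to 336 and 269 CPM. Of 27 proteasome genes 6 rose and 7 fell: PSME1 and PSME3, subunits of different activator rings, had log2 changes of 1.39 and -3.00. Ubiquitin-conjugating enzymes and deubiquitinases leaned down, with 15 of 33 lower and 5 higher (3 higher without either DMSO library or the 0.3 µM library).

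Of 41 splicing factors and hnRNPs, 18 fell and 8 rose, with HNRNPD (674 and 656 to 61.7 and 81.7 CPM) and HNRNPC (1368 and 1389 to 240 and 319 CPM) far lower and SF3B1, of the U2 particle, higher by 1.14 on the log2 scale. Of 30 nuclear pore and transport genes, 14 fell and 7 rose. XPO1, the main nuclear exporter, went from 595 and 571 to 123 and 101 CPM, while NUP155 of the pore ring went from 247 and 257 to 734 and 642 CPM. The other DEAD and DEAH-box helicases leaned up, with 15 of 35 higher and 6 lower, DDX31 from 72.4 and 69.6 to 216 and 253 CPM and DDX20 by 1.45 on the log2 scale. Of 26 aminoacyl-tRNA synthetases 11 rose and 5 fell (3 with DESeq2), led by QARS1 (203 and 218 to 672 and 829 CPM).

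Surface and matrix genes were close to balance. Of 26 collagen, laminin and integrin genes 8 rose and 10 fell, the rises being 4 without DMSO library 1 or the 0.3 µM library and 5 without DMSO library 2. TNC, tenascin C, and CD44, the hyaluronan receptor, had log2 changes of 1.34 and 1.11, and LAMA4 and ITGA3 of -2.19 and -1.54. Of 12 mesenchymal genes of dedifferentiated melanoma 5 rose, ZEB1 and CDH2 among them with 1.30 and 0.97, and 3 fell; leaving out DMSO library 2 left 3 rises, and leaving out it, DMSO library 1 or the 3 µM library left 1 fall and DESeq2 called 0. Pigment genes rose in 4 of 11 cases and fell in 2. In the fit over 16 libraries 1 rose and 1 fell, at equal depth 2 of 5 tested rose, and without any 1 A375 library 1 fell. GPNMB, a melanosome glycoprotein, went from 220 and 193 to 58.3 and 113 CPM.

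**Figure D3:**
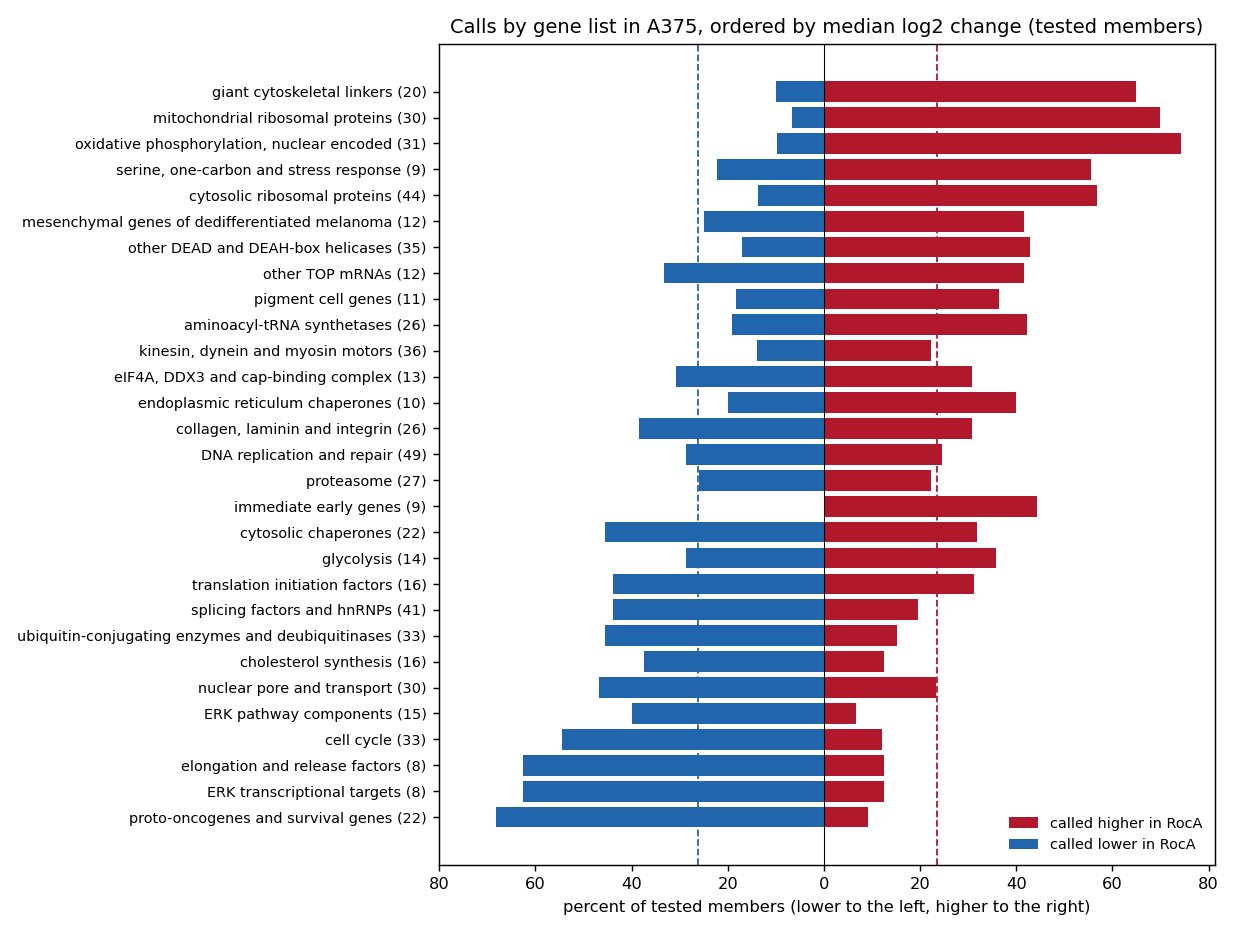
Percent of tested members called higher (red, to the right) or lower (blue, to the left) with RocA in A375, for each gene list with at least 8 tested members, whose number stands in brackets. Dashed lines mark the same percentages over all 6157 tested genes, 23.6% and 26.2%, and the lists run from giant cytoskeletal linkers (median log2 change 1.25) at the top to proto-oncogenes and survival genes (-1.22) at the bottom.

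Between the 2 doses, the SD of the log2 difference over 4399 genes with at least 25 CPM on average was 0.633, against 0.215 between the DMSO libraries, which are deeper. Both pairs spread by more than counting error. Chi-squared per degree of freedom, 1 for counting error alone, was 2.11 between the doses and 2.51 between the DMSO libraries. For the same relative spread this value grows with depth, so it does not rank the pairs, of which the DMSO libraries are deeper. With 1 library per dose there is no test between them, and the genes farthest apart are given as values. NEDD1, which recruits gamma-tubulin to centrosomes, had 24.0 CPM at 0.3 µM and 0 at 3 µM, against 66.0 and 67.2 CPM with DMSO. NAF1, a box H/ACA assembly factor, had 13.7 CPM and 0, against 63.5 and 53.2 CPM. FAM3C and TMEM14B, given above, showed the same pattern. These contrasts rest on 7 and 0 footprints for NEDD1 and on 4 and 0 for NAF1, FAM3C and TMEM14B. At the opposite end NR1H2, the liver X receptor beta, had 0 at 0.3 µM and 15.6 CPM at 3 µM, and ATG13, GCLC and TFCP2 each had 0 and 11.7 CPM, from 0 and 3 footprints. MON1B, a factor of endosome maturation, had 3.43 and 50.6 CPM against 20.8 and 28.7 CPM with DMSO, so its joined change of 0.01 joins values on both sides of DMSO. Without the 3 µM library its change was -2.865, called lower (edgeR, Benjamini-Hochberg adjusted p = 0.0126).

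**Figure D4:**
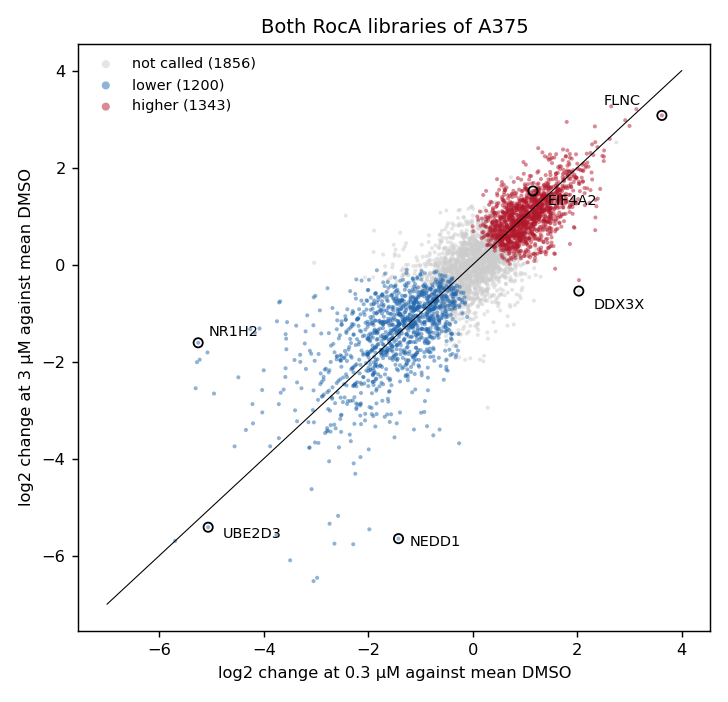
Log2 change of each A375 RocA library against the mean of the DMSO libraries for genes with at least 25 CPM, 0.3 µM on the x axis and 3 µM on the y axis, coloured by call, with the line of equal change in black. Among the points named, DDX3X (2.03 and -0.54), NEDD1 (-1.42 and -5.65) and NR1H2 (-5.26 and -1.61) lie off the line.

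Whether A375 responded differently from the other lines was tested for each gene by the A375 change minus the mean change of NCI-H1650, NCI-H520 and Hs 936.T, in 1 fit over 16 libraries. Of 6826 genes, 27 passed (0.396%), 22 with a higher and 5 with a lower response in A375, and 533 had an unadjusted p under 0.05 (edgeR's quasi-likelihood test). For 17 of the 27 both A375 changes lay outside all 6 changes of the other lines. All 27 had at least 25 CPM in A375. RocA libraries of the other lines were as shallow as 50245 footprints, and a response seen with few footprints there is imprecise.

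The 22 genes with a higher response in A375 included UTRN, HSPA1A, AMOTL1 and CD109. UTRN, utrophin, which ties actin to the membrane, rose in A375 from 49.4 and 64.5 to 204 and 123 CPM, with changes of 1.81 and 1.09 at the 2 doses, against changes of -1.57 to 0.87 in the other lines. The difference was 1.82 ± 0.29 (edgeR, Benjamini-Hochberg adjusted p = 4.4e-06). HSPA1A, an inducible heat shock protein of the HSP70 family, had changes of 0.18 and 0.69 in A375 and of -1.37 to -0.81 elsewhere, a difference of 1.49 ± 0.17 (edgeR, Benjamini-Hochberg adjusted p = 2.2e-11). HSPA1A thus had a lower footprint share in every RocA library of the other lines and in neither of A375, though it has a near-identical copy, HSPA1B, and its counts are uncertain. AMOTL1, a junction protein of the angiomotin family, likewise changed by 0.37 and 0.44 in A375 and by -1.35 to -0.66 elsewhere.

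CD109, a surface protein that binds TGF-beta, had the largest difference, 3.02 ± 0.58. Changes of CD109 were 1.63 and 1.16 in A375, 1.43 and 1.46 in NCI-H1650, and 1.14 and 0.58 in Hs 936.T. Only NCI-H520 went the other way, where CD109 was at 10.03 and 26.5 CPM with DMSO and at 0 in both RocA libraries. MANSC1, a membrane protein, had changes of 1.10 and 1.24 in A375 and of 1.07 and 1.68 in Hs 936.T, and negative changes in all 4 libraries of the lung lines, with a difference of 2.02 ± 0.43. IFT80, of the ciliary transport complex, IGSF3, an immunoglobulin-like membrane protein, and SUFU, an inhibitor of Hedgehog signalling, differed by 2.27 ± 0.58, 1.62 ± 0.41 and 1.66 ± 0.43. All 3 had negative changes in all 6 RocA libraries of the other lines. Their calls were not stable: IFT80 differed by 0.76 without the 0.3 µM library and 3.48 without the 3 µM library, and SUFU by 1.10 to 2.28 and IGSF3 by 1.51 to 1.84 without each A375 library in turn, each keeping the call in 2 of 4 cases.

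In 5 genes the change in A375 was the lower one. ERO1A, the oxidase of the endoplasmic reticulum, went from 88.3 and 60.8 to 16.4 and 3.72 CPM, with changes of -2.02 and -3.67 against -1.86 to 1.01 in the other lines. TRAPPC2, a subunit of a vesicle tether, changed by -2.41 and -1.19 against -0.96 to 0.98. SLC2A1 had changes of -4.07 and -3.11 in A375, -3.58 to -2.68 in the lung lines, and 0.89 and -0.72 in Hs 936.T. ACTG2, a smooth muscle actin that shares sequence with the other actins and is uncertain for that reason, and TXNRD1, thioredoxin reductase, differed by -1.64 ± 0.31 and -0.66 ± 0.17. TXNRD1 was lower with RocA in every library of the 4 lines, and most so in A375.

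NCI-H520 libraries also carried pigment markers, 1034 and 2544 CPM in sum with DMSO and 243 and 585 CPM with RocA, where Hs 936.T held 28870 to 49170 CPM. The part of this in the differences between lines was not tested. Leaving out the 2 libraries titled NCI-H520 whose cell line label reads NCI-H521 gave 28 calls, and 20 of the 27 genes remained. DESeq2 gave 22 calls, with an adjusted p for only 1400 of 6826 genes. Of the 27 genes 18 were among those 1400, and 13 were called. The number of calls also changed when 1 A375 library was left out. ASPM, CD109, FAT1 and HSPA1A kept the call without each A375 library in turn, and the other 23 genes lost it at least once. CD109 lost it without the libraries labelled NCI-H521 (edgeR, Benjamini-Hochberg adjusted p = 0.217). SLC2A1 differed by -0.80 and ACTG2 by -1.03 without the 0.3 µM library. Against Hs 936.T alone CD109 differed by 0.51 and FAT1 by 0.43, and neither kept the call. ASPM differed by 1.35, not called, when the libraries of each line were thinned to equal depth.

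**Figure D5:**
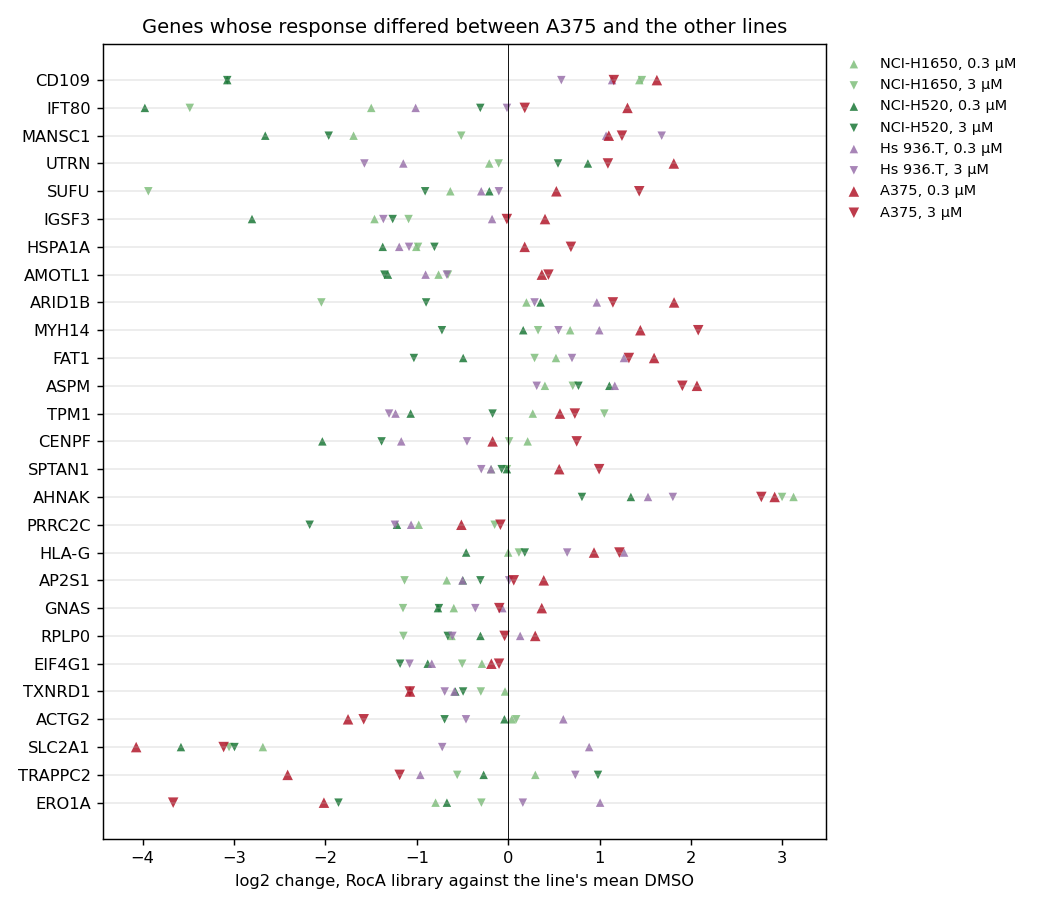
Log2 change of each RocA library against the mean of its line's DMSO libraries for the 27 genes whose response differed between A375 and the mean of the other lines, ordered by that difference. Red triangles are A375 (upward at 0.3 µM, downward at 3 µM), green ones the lung lines and purple ones Hs 936.T; the red pair lies outside all 6 other points in 17 rows, as for HSPA1A (0.18 and 0.69 against -1.37 to -0.81).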

How the data were processed

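Ribosome footprints of 4 A375 libraries, and of 12 libraries of 3 other lines, were analysed from the deposited tables, which give the authors' raw footprint count per transcript entry without further normalization. Per the submitters' processing notes, CASAVA 1.8, Bowtie2 2.1.0, TopHat2 2.0.9 and hg38 were used; the treatment of reads that map to several places, and strand, are not given in the sources used here.

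Each file lists 182398 entries with the codons counted (those of the coding sequence less 10). The coding lengths found in stretches of adjacent entries were compared, as sets, with those of the 19992 coding genes of GENCODE 29 (minimum score 12, natural log; minimum odds 100), which named 9990 genes; decoys with altered lengths passed at 0.839% of that number. The settings were chosen on the number named, the decoys and the presence of DDX3X. A gene was represented by the entry with the highest count over 16 libraries. Entries whose length also fits 1 of the 3 nearest genes on either side were not used, a step added after a ribosomal protein's entry had been counted under ERBB3; it changed the entry of 313 genes and left out 6. Y-linked genes were left out.

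Counts were tested in R 4.3.3 with edgeR 4.0.16 (TMM scaling, filterByExpr with a minimum count of 10, robust quasi-likelihood test, 2-sided, Benjamini-Hochberg) and, as an alternative, DESeq2 1.42.0. The between-line fit had a term for each line, a RocA term for each line and a common dose term. Changes per library are log2 CPM with a prior count of 2. On simulated counts 50% of 2-fold and 85% of 4-fold changes were recovered for the A375 comparison, with 0.173% false calls. The simulation used the spread fitted to these data and changed far fewer genes than the test called, as many up as down. Its shares therefore need not hold for the real comparison. Intervals and floors (3 counts) cover counting error only. Figures and tables were made in Python 3.11.15 with pandas 2.3.3 and matplotlib 3.10.9.

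The genes named are, among called genes with at least 25 CPM and both RocA libraries outside both DMSO libraries, the 12 largest rises and falls; up to 3 rises and 3 falls of each of 32 lists, with other members where a list is spelled out; EIF4A1, EIF4A2 and DDX3X; 5 dose contrasts each way; and the 8 largest between-line differences each way. The comparison, the lists and these rules were chosen with earlier results of these data known. Some genes that these rules select are not reported here.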

Additional observations from a re-analysis of the deposited data

Results flagged for a closer look

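The response to RocA differed between A375 and the mean of the other 3 lines, by a test of the difference itself, in 27 genes; the values are differences of log2 changes, A375 minus the mean of the others. Lower in A375 were ERO1A (-2.35), TRAPPC2 (-2.07), SLC2A1 (-1.69), ACTG2 (-1.64) and TXNRD1 (-0.66). Higher by at least 1.4 were CD109 (3.02), IFT80 (2.27), MANSC1 (2.02), UTRN (1.82), SUFU (1.66), IGSF3 (1.62), HSPA1A (1.49), AMOTL1 (1.49), ARID1B (1.48) and MYH14 (1.45). ARID1B belongs to a chromatin remodelling complex and MYH14 is a non-muscle myosin. Smaller differences were found for FAT1 (1.25), ASPM (1.24), TPM1 (1.12), CENPF (1.05), SPTAN1 (0.93), AHNAK (0.88), PRRC2C (0.86), HLA-G (0.76), AP2S1 (0.74), GNAS (0.73), RPLP0 (0.65) and EIF4G1 (0.64). ASPM and CENPF act at the mitotic spindle and kinetochore, and SPTAN1, TPM1 and FAT1 at the cytoskeleton and cell surface. Both A375 changes lay outside all 6 changes of the other lines for 17 of the 27 genes, AHNAK and HLA-G not among them. AHNAK changed by 3.12 and 3.00 in NCI-H1650, against 2.92 and 2.77 in A375. HLA-G changed by 1.27 and 0.65 in Hs 936.T, against 0.94 and 1.22 in A375. HLA-G shares sequence with other HLA genes, so its counts are uncertain. Against Hs 936.T alone FAT1 differed by 0.43 and CD109 by 0.51, and both lost the call, as ASPM did at equal depth. No group held enough libraries for a check of single outlying samples. Without each A375 library in turn ASPM, CD109, FAT1 and HSPA1A kept the call, and the other 23 genes lost it at least once; AP2S1 then reached 0.41, MYH14 0.91 and PRRC2C 0.56.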

How the results depend on the processing

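The A375 comparison gave 2009 to 3147 calls under the alternatives. Without each library in turn it gave 2282 to 2741. DESeq2 gave 2144 and equal depth 2009, of 3979 genes tested. Of 2128 values of 196 genes under these settings, 59 lost the call, in 20 genes, and 4 gained one: DDX3X (2.02 without the 3 µM library, -0.55 without the 0.3 µM library), MON1B (-2.865 without the 3 µM library) and FOSL1 (0.60 without the 0.3 µM library). Of the 2128 values, 6 turned in sign: DDX3X to -0.55, FOSL1 to -0.15 without the 3 µM library, and MON1B to -2.865, to -0.053 without a filter, -0.14 without DMSO library 1 and -0.028 over 16 libraries (0.99 without the 0.3 µM library).

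The between-line comparison was less stable, and the cause was not tested. Its 27 calls became 15 to 39 without each A375 library in turn (15 without DMSO library 1, 39 without DMSO library 2, 15 without the 0.3 µM library and 17 without the 3 µM library, with 14, 26, 10 and 14 of the 27 genes among them), 78 against Hs 936.T alone, where MANSC1 turned to -0.27, and 5 after thinning to the shallowest library of each line, which was added after seeing the data. With the replicate block, a term for the DMSO replicate number, there were 37 calls. Deviations of same-numbered DMSO libraries correlated at -0.02 to 0.09 between lines. No deviation common to a number was seen across lines, but this cannot exclude a pairing whose effect is small or differs by line. No paired analysis was possible within A375 because its RocA libraries carry no replicate number. Counts of list members under each setting were also added after seeing the data. Of the genes called lower, 298 had 0 to 3 footprints with RocA, which limits their folds.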
